A study of Homo sapiens with 44 samples.

Results

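Cells make cholesterol and fatty acids from cytosolic acetyl-CoA, and 31 genes of these routes were followed here through 18 RNA libraries of HCT116 cells, a human colon carcinoma cell line that the labels describe as p53+/+. Their members were taken by gene symbol: 6 enzymes from HMG-CoA to farnesyl diphosphate, 3 enzymes that make squalene and lanosterol, 8 that turn lanosterol into cholesterol, 5 genes of sterol sensing, a thiolase and a sterol carrier, 3 enzymes that make palmitate and 4 that lengthen or desaturate fatty acids. All 31 symbols were found in both deposited tables, which list 18797 genes for the GAS41 experiment and 21159 for the doxorubicin experiment, and all 31 passed the filter on low values (at least 10 reads in at least 3 libraries), as did 14505 and 14195 genes of the whole tables.

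The series asks how GAS41, a chromatin protein encoded by YEATS4 whose YEATS domain reads acylated histone H3, takes part in gene control and in the response to doxorubicin, a topoisomerase poison that damages DNA. In the GAS41 experiment, mut rescue cells are GAS41-KO cells with a stably expressed GFP-Flag-GAS41 that carries Y74A and W93A in the YEATS domain. The wt rescue cells are GAS41-KO cells with stably expressed GFP-Flag-GAS41 of normal sequence, GAS41-KO cells have neither transgene, and WT cells are the group labelled as wild type. Each of these 4 groups has 3 libraries of poly-A RNA, which the labels call biological replicates. In the doxorubicin experiment 3 libraries come from cells given 500 nM doxorubicin and 3 from cells given DMSO, the solvent. The promoter that drives the transgenes, the number of knockout or rescue clones and the length of treatment are not given in the sources used here, so the p-values below measure the spread between these libraries, and a difference between 2 lines cannot be told apart from a difference between clones.

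The synthesis of both lipids is controlled by the SREBP factors, membrane proteins that SREBF1 and SREBF2 encode. When membrane cholesterol is low, the escort protein SCAP carries them from the endoplasmic reticulum to the Golgi, where proteases free the part that enters the nucleus and switches on the enzymes of the mevalonate, cholesterol and fatty acid routes. When cholesterol is ample, the INSIG proteins hold SCAP back, and INSIG1 is itself a target of the factors. Dividing cells need both products for new membranes, and tumour lines usually keep the routes active.

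SREBP factors bind promoters together with NF-Y, whose box reads CCAAT and, on the opposite strand, ATTGG. In the RefSeq promoter table (GRCh38.p14), 27 of the 31 genes had a window, here the 250 bases before the start. FDFT1, SQLE, ACAT2 and FASN had none in that table. A CCAAT box on either strand was present for 19 of the 27 genes, or 70.4%, against 41.3% of the 10483 genes that were tested in the GAS41 table and had a window, and 37% of all 27305 genes with one. GGGCGG, the GC box, was present for 26 of the 27 (96.3%), against 73.9% of the tested genes. CACGTG, an E-box, was present for 3 of the 27 (11.1%), against 10.9%. TCACNCCAC, a form of the sterol regulatory element, was present for SREBF2 only (3.7%), against 1.15%. Both strands were searched, a gene counted when any of its windows held the letters, and the 4 motifs do not contain one another. These shares are descriptions of letters in a window, and no test was made of them.

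Windows of 6 genes named in the results below are printed. HMGCS1 and MVK stand for the mevalonate enzymes, and INSIG1 and SREBF2 for sterol sensing. SCD is the gene with the largest fall under doxorubicin, and TM7SF2 the sole enzyme that rose in the knockout. Capitals mark CCAAT or ATTGG and, in SREBF2, also TCACCCCAC. Where RefSeq has several starts, the window with most marked boxes is shown. HMGCS1 lies at chr5:43313413-43313662, minus strand, MVK at chr12:109573544-109573793, plus strand, INSIG1 at chr7:155297628-155297877, plus strand, SREBF2 at chr22:41832855-41833104, plus strand, SCD at chr10:100346983-100347232, plus strand and TM7SF2 at chr11:65111622-65111871, plus strand. Each is written 5′ to 3′ on the gene's strand.
HMGCS1: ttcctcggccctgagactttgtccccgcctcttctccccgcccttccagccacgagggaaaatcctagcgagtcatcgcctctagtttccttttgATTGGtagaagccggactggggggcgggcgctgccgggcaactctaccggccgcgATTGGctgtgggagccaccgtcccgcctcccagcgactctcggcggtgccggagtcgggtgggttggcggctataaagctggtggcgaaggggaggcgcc
MVK: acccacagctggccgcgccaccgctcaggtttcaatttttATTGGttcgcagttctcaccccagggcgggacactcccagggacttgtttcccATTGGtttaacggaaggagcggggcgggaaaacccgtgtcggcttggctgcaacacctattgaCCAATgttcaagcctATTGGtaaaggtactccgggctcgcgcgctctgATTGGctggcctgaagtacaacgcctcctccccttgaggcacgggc
INSIG1: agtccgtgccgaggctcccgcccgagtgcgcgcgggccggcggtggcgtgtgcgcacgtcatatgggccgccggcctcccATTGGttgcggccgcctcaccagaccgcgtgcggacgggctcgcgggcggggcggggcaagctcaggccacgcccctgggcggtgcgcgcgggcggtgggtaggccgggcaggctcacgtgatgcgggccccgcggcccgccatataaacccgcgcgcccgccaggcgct
SREBF2: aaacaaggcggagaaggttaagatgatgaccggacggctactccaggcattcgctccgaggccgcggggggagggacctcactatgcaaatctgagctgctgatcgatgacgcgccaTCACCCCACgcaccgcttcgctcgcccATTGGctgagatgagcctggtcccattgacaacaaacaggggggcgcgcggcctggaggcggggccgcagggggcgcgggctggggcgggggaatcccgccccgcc
SCD: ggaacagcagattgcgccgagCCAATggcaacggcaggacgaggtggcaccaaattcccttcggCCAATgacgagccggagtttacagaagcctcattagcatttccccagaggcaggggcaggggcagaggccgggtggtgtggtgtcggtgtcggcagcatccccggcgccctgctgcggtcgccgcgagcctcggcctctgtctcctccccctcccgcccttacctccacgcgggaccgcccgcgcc
TM7SF2: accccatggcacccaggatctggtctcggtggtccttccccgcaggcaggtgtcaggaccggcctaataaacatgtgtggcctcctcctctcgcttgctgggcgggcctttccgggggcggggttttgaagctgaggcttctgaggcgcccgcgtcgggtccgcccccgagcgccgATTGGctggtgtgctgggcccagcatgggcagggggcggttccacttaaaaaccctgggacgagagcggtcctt
MVK held 5 boxes, of which the farthest began at position -210 from the start, while SREBF2 held its sterol element at -133 and a box at -106. TM7SF2, which rose in the knockout where most of the other enzymes fell, also held a box, at -74.

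The libraries held 16857982 to 18546135 reads in the GAS41 experiment and 17442035 to 18894312 in the doxorubicin experiment. Levels are given as normalized reads, the reads of a gene divided by the library's size factor, and they compare libraries, not genes of different length. YEATS4, the targeted gene, had 2551, 2358 and 2538 normalized reads in mut rescue, 2887, 3499.6 and 3372 in wt rescue, 386, 337 and 325 in GAS41-KO and 625, 608 and 621 in WT. The knockout libraries were thus the lowest of the 4 groups but still held 56.5% of the WT reads, and where the edit lies is not given in the sources used here. Doxorubicin libraries held 173, 193 and 188 YEATS4 normalized reads, against 694, 612 and 698 with DMSO. Of 10 colon epithelium markers, KRT8, KRT18 and KRT19 were high in every library, whereas VIL1 was under 10 reads in all libraries of the GAS41 experiment. The other markers of the list moved in both directions. EPCAM, an epithelial adhesion protein, had 1834, 1511 and 1666 normalized reads in mut rescue, 8126, 9608 and 9302 in wt rescue, 932, 898 and 915 in GAS41-KO and 7876, 7187 and 7446 in WT. CDH1 and ELF3 were lower in the same groups, CDH1 at 131, 128 and 155 in GAS41-KO and 1418, 1402 and 1436 in WT, and ELF3 at 284, 302 and 310.3 in GAS41-KO and 951, 989.7 and 953 in WT. KRT20 was higher, at 98.8, 104 and 107 in GAS41-KO and 19.1, 16.1 and 14.2 in WT. KRT8 was also higher in GAS41-KO than in WT, at 36865, 36492 and 36735 against 25483, 27986 and 27495. In wt rescue KRT20 had 12.9, 29.2 and 25.8, whereas KRT8 had 37845.5, 45075 and 41707 and was not lower there than in GAS41-KO. Over the 9 markers in the table of 10 listed, the summed level was 63831 to 65673 in GAS41-KO and 57758 to 61425 in WT. These levels are given without a test, and their part in the results was not tested. Summed levels of the 3 adipocyte markers in the table (of 4 listed) stayed between 5.16 and 24 normalized reads in every GAS41 library, so the defining markers of fat cells were near 0. In bulk RNA, fewer cells of a kind and less RNA per cell cannot be told apart.

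The wt rescue libraries did not all look alike. Replicate 1 differed from replicates 2 and 3 by over 0.5 log2 in 860 and 523 genes, while replicates 2 and 3 differed in 1 gene. In mut rescue, replicates 2 and 3 differed in 167 genes, and DMSO replicates 1 and 3 in 227. The counts that rest on wt rescue are therefore also given without replicate 1. Median log2 differences are given with replicate 1 as the sole wt rescue library. A fit with replicate 1 alone has no spread of its own for wt rescue: it takes that of the remaining groups and assumes that the lone library varies as they do.

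Most of the synthesis genes were lower in GAS41-KO cells. Of the 31 genes, 26 were lower and 2 higher in GAS41-KO than in WT, and 3 were not called (limma on the deposited log2 values, all 12 libraries in 1 fit, called at an adjusted p under 0.05 over all genes). Calls were common in this comparison, with 52.6% of all tested genes called, 26.6% lower and 26% higher. The libraries of the compared groups did not overlap for 29 of the 31 genes, beside 69% of all tested genes. The median log2 difference was -0.49 over the 31 genes and -0.01 over all tested genes. By position in the routes, 5 of 6 mevalonate enzymes fell, 3 of 3 enzymes of squalene and lanosterol, 6 of 8 enzymes after lanosterol, 4 of 5 sensing genes, both the thiolase and the sterol carrier, 3 of 3 palmitate enzymes and 3 of 4 elongation and desaturation enzymes.

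Among the mevalonate enzymes HMGCS1, which makes HMG-CoA, changed most. It had 989.7, 968 and 939 normalized reads in GAS41-KO libraries, against 2232, 2132 and 2217 in WT libraries, a log2 difference of -1.07 ± 0.06 (SE, adjusted p = 6.99e-10). The groups did not overlap, and the knockout mean was 44% of the WT mean. IDI1, the isomerase that makes the reactive isoprene unit, had 927, 752 and 865 normalized reads in GAS41-KO, against 1518, 1359 and 1456 in WT, a log2 difference of -0.68 ± 0.09 (SE, adjusted p = 6.34e-06). FDPS, which joins isoprene units into farnesyl diphosphate, averaged 1389 ± 8.83 normalized reads in GAS41-KO and 2032 ± 26.8 in WT (SD, n = 3 each), a log2 difference of -0.50 (adjusted p = 8.41e-06). MVK, mevalonate kinase, had a log2 difference of -0.42 (adjusted p = 0.000211) and MVD, the decarboxylase, one of -0.49 (adjusted p = 7.46e-05). PMVK, the kinase that acts between them, was not called. It had 439, 446 and 416 normalized reads in GAS41-KO and 434, 433 and 418 in WT, and the groups overlapped.

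The enzymes that commit farnesyl diphosphate to sterols were all lower. FDFT1, squalene synthase, had 1364, 1319 and 1438 normalized reads in GAS41-KO, against 2643, 2532 and 2689.7 in WT, a log2 difference of -0.86 ± 0.08 (SE, adjusted p = 1.34e-07). SQLE, the epoxidase that introduces the oxygen of the sterol ring, had 1283, 1282 and 1278 in GAS41-KO, against 1990.5, 1745 and 1927 in WT, a log2 difference of -0.51 ± 0.08 (SE, adjusted p = 4e-05). LSS, which closes the rings to lanosterol, moved least of these, with a log2 difference of -0.32 (adjusted p = 0.0015). In each of them the highest knockout library lay below the lowest WT library.

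Past lanosterol, the enzymes split. CYP51A1, which removes a methyl group from lanosterol, had 1311, 1237 and 1276 normalized reads in GAS41-KO, against 2449.7, 2383 and 2406 in WT, a log2 difference of -0.85 ± 0.07 (SE, adjusted p = 3.66e-08). DHCR7, a reductase at the end of the route, had 1035, 1025 and 1024 in GAS41-KO, against 1733, 1855 and 1785 in WT, a log2 difference of -0.72 (adjusted p = 1.92e-06). EBP, the isomerase of the sterol double bond, had 728, 626 and 603 in GAS41-KO, against 1077, 1177 and 1107 in WT, a log2 difference of -0.67 (adjusted p = 4.86e-06). MSMO1, NSDHL and HSD17B7, the oxidase, dehydrogenase and reductase that together remove methyl groups from the ring, fell by smaller amounts. Their log2 differences were -0.48 (adjusted p = 6.66e-06) for MSMO1, -0.35 (adjusted p = 0.000633) for NSDHL and -0.27 (adjusted p = 0.000974) for HSD17B7. SC5D, a desaturase, was not called, at 1112, 965 and 969 normalized reads in GAS41-KO and 1074, 1017 and 1082 in WT.

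TM7SF2, a sterol reductase that acts just after CYP51A1, was higher in the knockout. It had 639, 609.7 and 666 normalized reads in GAS41-KO, against 251, 278 and 305 in WT, a log2 difference of 0.91 ± 0.08 (SE, adjusted p = 8.47e-08). The knockout mean was 229% of the WT mean, and TM7SF2 was the sole enzyme of the 31 genes to rise. The other gene to rise was SCAP, the escort of the SREBP factors, at 1143, 1250.2 and 1257 in GAS41-KO and 1000.5, 1077 and 1010.4 in WT, a log2 difference of 0.21 (adjusted p = 0.0251).

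Among the sensing genes INSIG1 had the largest difference. It had 579, 560.3 and 549.5 normalized reads in GAS41-KO, against 1379, 1336 and 1421 in WT, a log2 difference of -1.11 ± 0.06 (SE, adjusted p = 1.71e-10). SREBF2, which encodes the factor of the cholesterol genes, averaged 3489.8 ± 99.7 in GAS41-KO and 4314 ± 107 in WT, a log2 difference of -0.29 (adjusted p = 0.00238). SREBF1, which encodes the factor of the fatty acid genes, averaged 3275 ± 169 in GAS41-KO and 3887 ± 185 in WT, a log2 difference of -0.24 (adjusted p = 0.0344). RNA levels do not show how much of either factor reaches the nucleus. INSIG2, the second retention protein, had a log2 difference of -0.20 (adjusted p = 0.0444). The calls of SCAP, SREBF1, INSIG2 and ACLY were lost under 4, 5, 7 and 8 of the alternative settings.

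ACAT2, the cytosolic thiolase that starts the sterol route, had 403, 315 and 391 normalized reads in GAS41-KO, against 594, 624 and 635 in WT, a log2 difference of -0.58 (adjusted p = 4.44e-05). It overlaps TCP1, a chaperonin gene with many more reads that itself averaged 9637 ± 166 in GAS41-KO and 13534 ± 140.5 in WT, a log2 difference of -0.48 (adjusted p = 7.26e-06). STARD4, a carrier that moves cholesterol between membranes, had 655, 609 and 595 in GAS41-KO, against 1047, 907 and 960.1 in WT, a log2 difference of -0.55 ± 0.14 (SE, adjusted p = 0.00368).

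On the fatty acid side, ELOVL6 and SCD had the largest differences. ELOVL6, which lengthens palmitate to stearate, had 545, 491 and 498 normalized reads in GAS41-KO, against 1639, 1584 and 1587 in WT, a log2 difference of -1.42 ± 0.06 (SE, adjusted p = 1.76e-11). SCD, which turns stearate into oleate, had 15633, 15253 and 15948 in GAS41-KO, against 38665, 36463 and 37891 in WT, a log2 difference of -1.26 ± 0.07 (SE, adjusted p = 5.14e-10). The knockout means of ELOVL6 and SCD were 31.9% and 41.4% of the WT means. FASN, fatty acid synthase, had 11486, 12643 and 12540.2 in GAS41-KO, against 23232, 25338 and 23886 in WT, a log2 difference of -0.97 ± 0.08 (SE, adjusted p = 7.08e-08). ACACA, the carboxylase that makes malonyl-CoA, had a log2 difference of -0.64 (adjusted p = 1.2e-07), and ACLY, which makes acetyl-CoA from citrate, one of -0.17 (adjusted p = 0.0426). FADS1, a desaturase of polyunsaturated fatty acids, had one of -0.48 (adjusted p = 1.7e-05). FADS2, its neighbour and partner enzyme, was not called at -0.12 (adjusted p = 0.122).

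**Figure D1:**
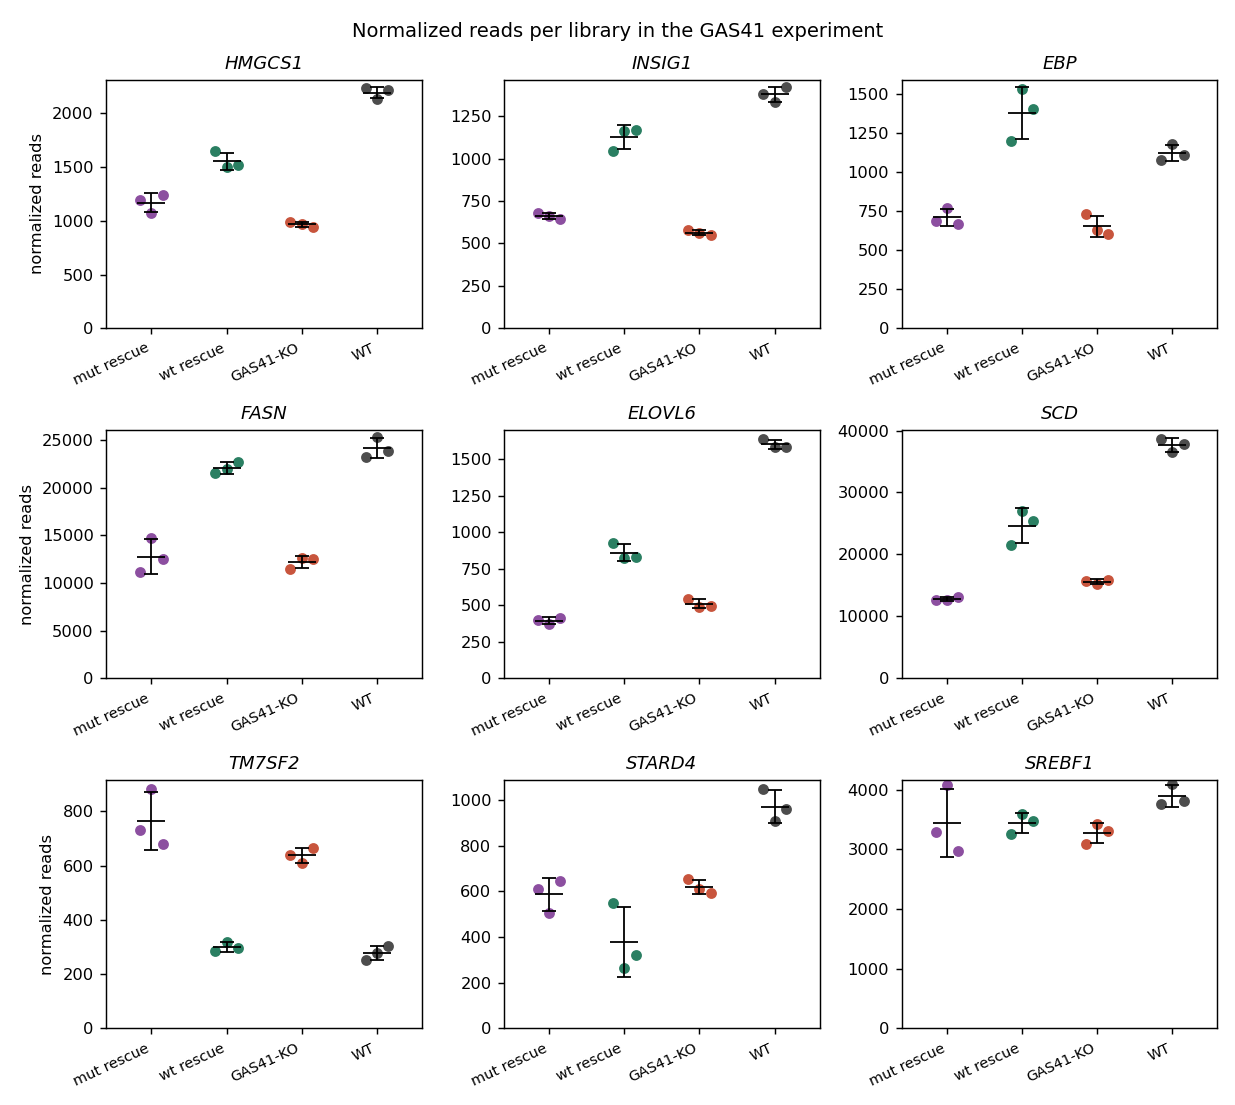
Normalized reads (y axis, linear, from 0) of 9 synthesis genes in the 12 libraries of the GAS41 experiment, by group along the x axis. Points are libraries and bars the mean ± SD (n = 3). HMGCS1, INSIG1, EBP, FASN, ELOVL6 and SCD lie lower in mut rescue and GAS41-KO than in wt rescue and WT, TM7SF2 lies higher, and STARD4 is spread in wt rescue.

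Knockout cells with the normal GAS41 transgene had more RNA of most of the genes. In wt rescue over GAS41-KO, 21 of the 31 genes were higher, 3 lower and 7 not called. In all, 66% of tested genes were called in this comparison, 33% higher and 33% lower. Groups did not overlap for 23 of the 31 genes, beside 68.8% of all tested genes. The median log2 difference was 0.47 over the 31 genes and -0.01 over all tested genes. All 7 fatty acid genes were higher, as were 14 of the 24 sterol-side genes. The call of LSS was lost under 7 settings (limma, adjusted p up to 0.365), that of FADS2 under 3 (up to 0.184) and that of FADS1 under 1 (0.0557). Without wt rescue replicate 1 the counts were 22 higher and 4 lower, with 70% of all tested genes called. With replicate 1 as the sole wt rescue library the median log2 difference was 0.34 over the 31 genes and -0.0028 over all tested genes.

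EBP changed most among the genes that rose. It had 1201, 1528 and 1404 normalized reads in wt rescue, against 728, 626 and 603 in GAS41-KO, a log2 difference of 0.93 ± 0.08 (SE, adjusted p = 8.18e-08). INSIG1 had 1047, 1164 and 1172 in wt rescue, against 579, 560.3 and 549.5 in GAS41-KO, a log2 difference of 0.85 ± 0.06 (SE, adjusted p = 4.51e-09). FASN had 21487, 22003 and 22724 in wt rescue, against 11486, 12643 and 12540.2 in GAS41-KO, a log2 difference of 0.85 ± 0.08 (SE, adjusted p = 2.35e-07). In these the lowest rescue library exceeded the highest knockout library. SQLE rose by a log2 difference of 0.78 (adjusted p = 2.48e-07), DHCR7 by 0.78 (adjusted p = 5.02e-07), CYP51A1 by 0.65 (adjusted p = 4.69e-07), SCD by 0.65 (adjusted p = 9.82e-07), ELOVL6 by 0.62 (adjusted p = 2.99e-07) and HMGCS1 by 0.61 (adjusted p = 3.84e-07). SREBF1, SREBF2, SCAP and INSIG2 were not called, and their 95% intervals lay between -0.26 and 0.26 on the log2 scale.

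TM7SF2 fell with normal GAS41, to 285, 319 and 297 normalized reads in wt rescue, against 639, 609.7 and 666 in GAS41-KO, a log2 difference of -0.83 ± 0.08 (SE, adjusted p = 1.61e-07). STARD4 also fell, to 551, 264 and 321 in wt rescue, against 655, 609 and 595 in GAS41-KO, a log2 difference of -0.59 ± 0.14 (SE, adjusted p = 0.00145). The STARD4 value rests on replicates 2 and 3, which lie far below replicate 1: with replicate 1 as the sole library its log2 difference was -0.14 (limma, adjusted p = 0.283). SC5D had 976, 682 and 768 in wt rescue, against 1112, 965 and 969 in GAS41-KO, a log2 difference of -0.29 ± 0.10 (SE, adjusted p = 0.0149). Here replicate 1 lay within the knockout range, and with that replicate as the sole library the log2 difference was -0.05 (limma, adjusted p = 0.722).

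With the YEATS-domain mutant most of the genes, like most of all tested genes, were not called against the knockout. In mut rescue over GAS41-KO, 2 of the 31 genes were higher, 3 lower and 26 not called. Of all tested genes 14.9% were called, 5.92% higher and 9% lower. Groups did not overlap for 10 of the 31 genes, beside 33.7% of all tested genes. The median log2 difference was 0.03 over the 31 genes and 0.01 over all tested genes. HMGCS1 had 1198, 1072 and 1240.4 normalized reads in mut rescue, against 989.7, 968 and 939 in GAS41-KO, a log2 difference of 0.24 ± 0.06 (SE, adjusted p = 0.0156). INSIG1 had 681, 665 and 645 in mut rescue, against 579, 560.3 and 549.5 in GAS41-KO, a log2 difference of 0.19 ± 0.06 (SE, adjusted p = 0.0343). These rises were smaller than those under normal GAS41, and the difference itself was tested in the next comparison.

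The genes that fell in mut rescue were already low in the knockout. ELOVL6 had 398, 369 and 416 normalized reads in mut rescue, against 545, 491 and 498 in GAS41-KO, a log2 difference of -0.29 ± 0.06 (SE, adjusted p = 0.0048). SCD had 12697, 12591 and 13185 in mut rescue, against 15633, 15253 and 15948 in GAS41-KO, a log2 difference of -0.28 ± 0.07 (SE, adjusted p = 0.0147). SREBF2 had 2747, 3173 and 2680.0 in mut rescue, against 3377, 3526 and 3566 in GAS41-KO, a log2 difference of -0.27 ± 0.07 (SE, adjusted p = 0.0158). In each the groups did not overlap. Log2 differences of the 26 genes that were not called ran between -0.22 (FDFT1) and 0.21 (TM7SF2), and their 95% intervals between -0.38 and 0.38. The 5 calls depend on single libraries: leaving 1 library out gave 1 to 6 calls. There was 1 call without mut rescue replicate 1 or without GAS41-KO replicate 3, 2 without GAS41-KO replicate 2 and 3 without GAS41-KO replicate 1. The share of all tested genes called fell in these fits too, from 14.9% to 9.78%, 8.8%, 9.45% and 9.74% in the same order.

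**Figure D2:**
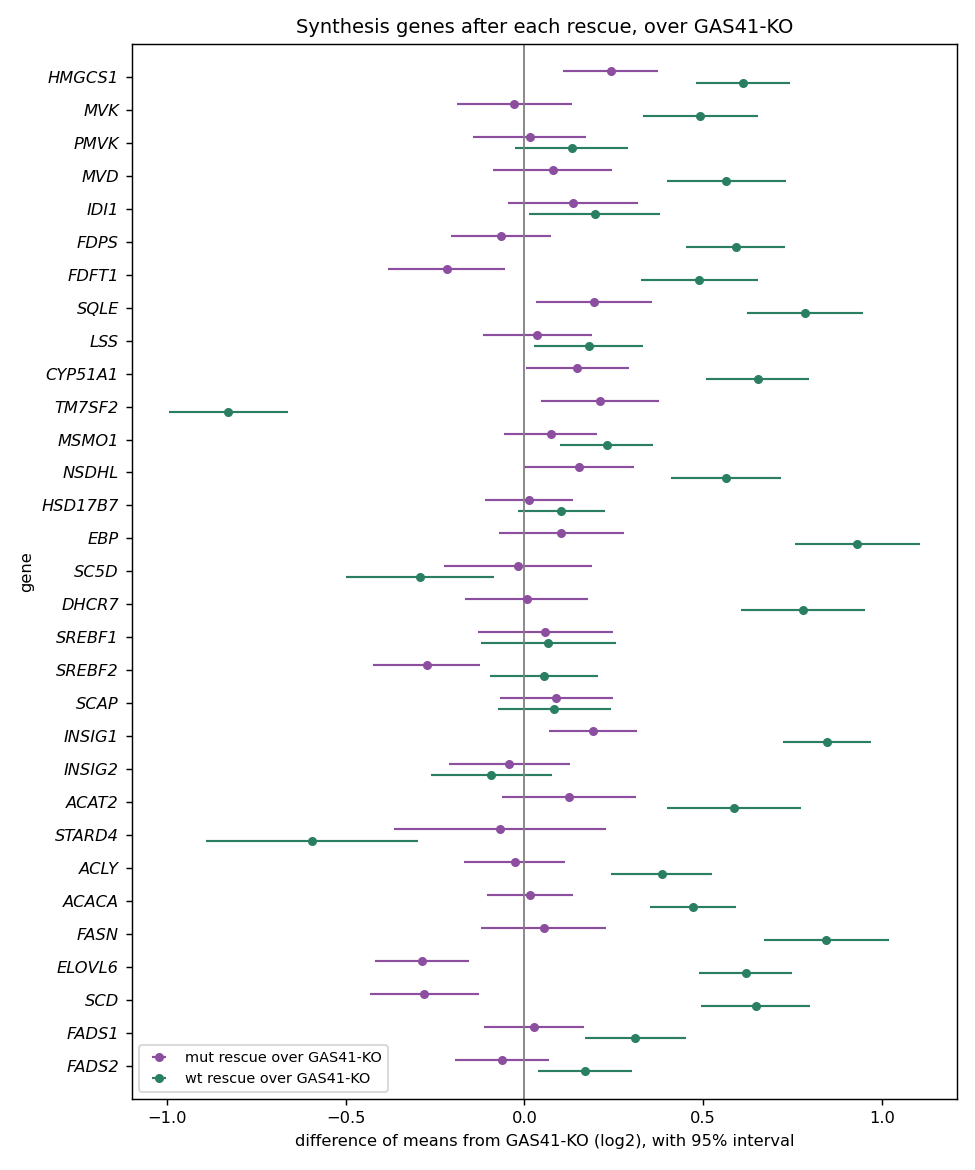
Log2 difference of means from GAS41-KO (x axis) with its 95% interval for the 31 synthesis genes (y axis), for mut rescue and wt rescue; both comparisons share the GAS41-KO libraries. The wt rescue points of EBP (0.93), INSIG1 (0.85) and FASN (0.85) lie far to the right of the mut rescue points, while those of SREBF1 and SCAP lie together near 0.

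The rescue lines were also compared directly, the mutant with the normal transgene. In mut rescue over wt rescue, 21 of the 31 genes were lower, 3 higher and 7 not called. Of all tested genes 61.1% were called, 31.3% lower and 29.8% higher. Groups did not overlap for 22 of the 31 genes, beside 57.9% of all tested genes. The median log2 difference was -0.41 over the 31 genes and 0.00462 over all tested genes. Without wt rescue replicate 1 the counts were 22 lower and 3 higher, with 65.7% of all tested genes called. With replicate 1 as the sole wt rescue library the median log2 difference was -0.27 over the 31 genes and -0.0021 over all tested genes. YEATS4 itself was lower in mut rescue, with a log2 difference of -0.37 (adjusted p = 0.000443), and the part of that difference in the results was not tested.

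SCD had 12697, 12591 and 13185 normalized reads in mut rescue, against 21517, 27035 and 25369 in wt rescue, a log2 difference of -0.93 ± 0.07 (SE, adjusted p = 3.26e-08). ELOVL6 had 398, 369 and 416 in mut rescue, against 927, 826 and 831 in wt rescue, a log2 difference of -0.91 ± 0.06 (SE, adjusted p = 7.53e-09). The mutant mean was 52% of the wt rescue mean for SCD and 45.8% for ELOVL6, and neither gene had groups that overlapped. EBP had 689, 771 and 670.0 in mut rescue, against 1201, 1528 and 1404 in wt rescue, a log2 difference of -0.83 ± 0.08 (SE, adjusted p = 5.28e-07). FASN, DHCR7 and FDFT1 were lower, with log2 differences of -0.79 (adjusted p = 8.51e-07), -0.77 (adjusted p = 9.54e-07) and -0.71 (adjusted p = 1.35e-06). INSIG1 had a log2 difference of -0.65 (adjusted p = 1.53e-07) and HMGCS1 one of -0.37 (adjusted p = 0.000104). TM7SF2 was higher, at 732, 884 and 679 normalized reads in mut rescue, against 285, 319 and 297 in wt rescue, a log2 difference of 1.04 ± 0.08 (SE, adjusted p = 2.27e-08). STARD4 and SC5D, the other genes that were higher, had groups that overlapped, and with replicate 1 as the sole wt rescue library their log2 differences were 0.07 for STARD4 and 0.03 for SC5D (limma, adjusted p = 0.618 and 0.829).

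Neither rescue line equalled the unedited cells, and both held more YEATS4 RNA. YEATS4 had 2551, 2358 and 2538 normalized reads in mut rescue, 2887, 3499.6 and 3372 in wt rescue and 625, 608 and 621 in WT. The part of that difference in the results was not tested. In wt rescue over WT, 5 of the 31 genes were higher, 15 lower and 11 not called, beside 50.1% of all tested genes called, 27.4% higher and 22.7% lower. Groups did not overlap for 24 of the 31 genes, beside 57.3% of all tested genes. With quantile normalization the split was 2 higher and 17 lower, with 43.1% of all tested genes called. Without wt rescue replicate 1 it was 7 higher and 12 lower, with 58.2% of all tested genes called. With replicate 1 as the sole wt rescue library the median log2 difference was -0.19 over the 31 genes and 0.0045 over all tested genes. STARD4, at 551, 264 and 321 normalized reads in wt rescue and 1047, 907 and 960.1 in WT, had a log2 difference of -1.14 (adjusted p = 2.45e-05), which was -0.68 (limma, adjusted p = 0.000324) with replicate 1 as the sole wt rescue library. ELOVL6 had 927, 826 and 831 in wt rescue, against 1639, 1584 and 1587 in WT, a log2 difference of -0.80 ± 0.06 (SE, adjusted p = 2.36e-07). SCD had 21517, 27035 and 25369 in wt rescue, against 38665, 36463 and 37891 in WT, a log2 difference of -0.62 ± 0.07 (SE, adjusted p = 1.67e-05). These enzymes therefore stayed below the WT level under normal GAS41, although both exceeded the knockout level. The genes that were higher were SQLE, NSDHL, EBP, SCAP and ACLY, with log2 differences between 0.21 and 0.30. With replicate 1 as the sole wt rescue library their log2 differences ran between 0.06 (ACLY) and 0.25 (SCAP) and were not called. FASN, DHCR7, FDPS, MVK, MVD and TM7SF2 were among those not called, and TM7SF2 averaged 300.4 ± 17.4 in wt rescue and 278 ± 27.2 in WT.

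In mut rescue over WT, which shares its WT libraries with the knockout comparison, 26 of the 31 genes were lower, 2 higher and 3 not called. Of all tested genes 46.3% were called, 22.9% lower and 23.5% higher. Groups did not overlap for 28 of the 31 genes, beside 56% of all tested genes. The median log2 difference was -0.45 over the 31 genes. ELOVL6 had 398, 369 and 416 normalized reads in mut rescue, against 1639, 1584 and 1587 in WT, a log2 difference of -1.70 ± 0.06 (SE, adjusted p = 2.87e-12). SCD had a log2 difference of -1.54 (adjusted p = 5.77e-11), FDFT1 one of -1.08 (adjusted p = 1.17e-08) and FASN one of -0.92 (adjusted p = 1.8e-07). All 7 fatty acid genes were lower, FADS2 with a log2 difference of -0.18 (adjusted p = 0.0252). The calls of FADS2 and ACLY in this comparison were each lost under 4 settings, with adjusted p (limma) up to 0.0963 and 0.0791. TM7SF2 and SCAP were higher, by 1.12 (adjusted p = 8.91e-09) and 0.30 (adjusted p = 0.00341). PMVK, SC5D and SREBF1 were not called.

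In the order of the 4 group means, 24 of the 31 genes had mut rescue and GAS41-KO as the lower pair and wt rescue and WT as the upper pair, and TM7SF2 alone had them the other way round. The same holds for 30.3% of the 14505 tested genes in the first direction and 30.8% in the other, and the 4 groups enter more than 1 of the comparisons above. The commonest order, in 10 genes, was GAS41-KO lowest, then mut rescue, wt rescue and WT. Its share over all tested genes was not counted. Of neighbours in that order, mut rescue and GAS41-KO were not called different for 26 of the 31 genes, with 10 of the 31 not overlapping. Of all tested genes 14.9% were called and 33.7% did not overlap in that comparison. The wt rescue and WT groups were not called different for 11 genes, with 24 of the 31 not overlapping. Of all tested genes 50.1% were called and 57.3% did not overlap there. STARD4, SC5D and INSIG2 had their lowest mean in wt rescue, where replicates 2 and 3 were low. The spread between replicates was smallest in WT, with a median coefficient of variation of 3.44% over the 31 genes, and was 9.32% in mut rescue, 8.87% in wt rescue and 4.37% in GAS41-KO.

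**Figure D3:**
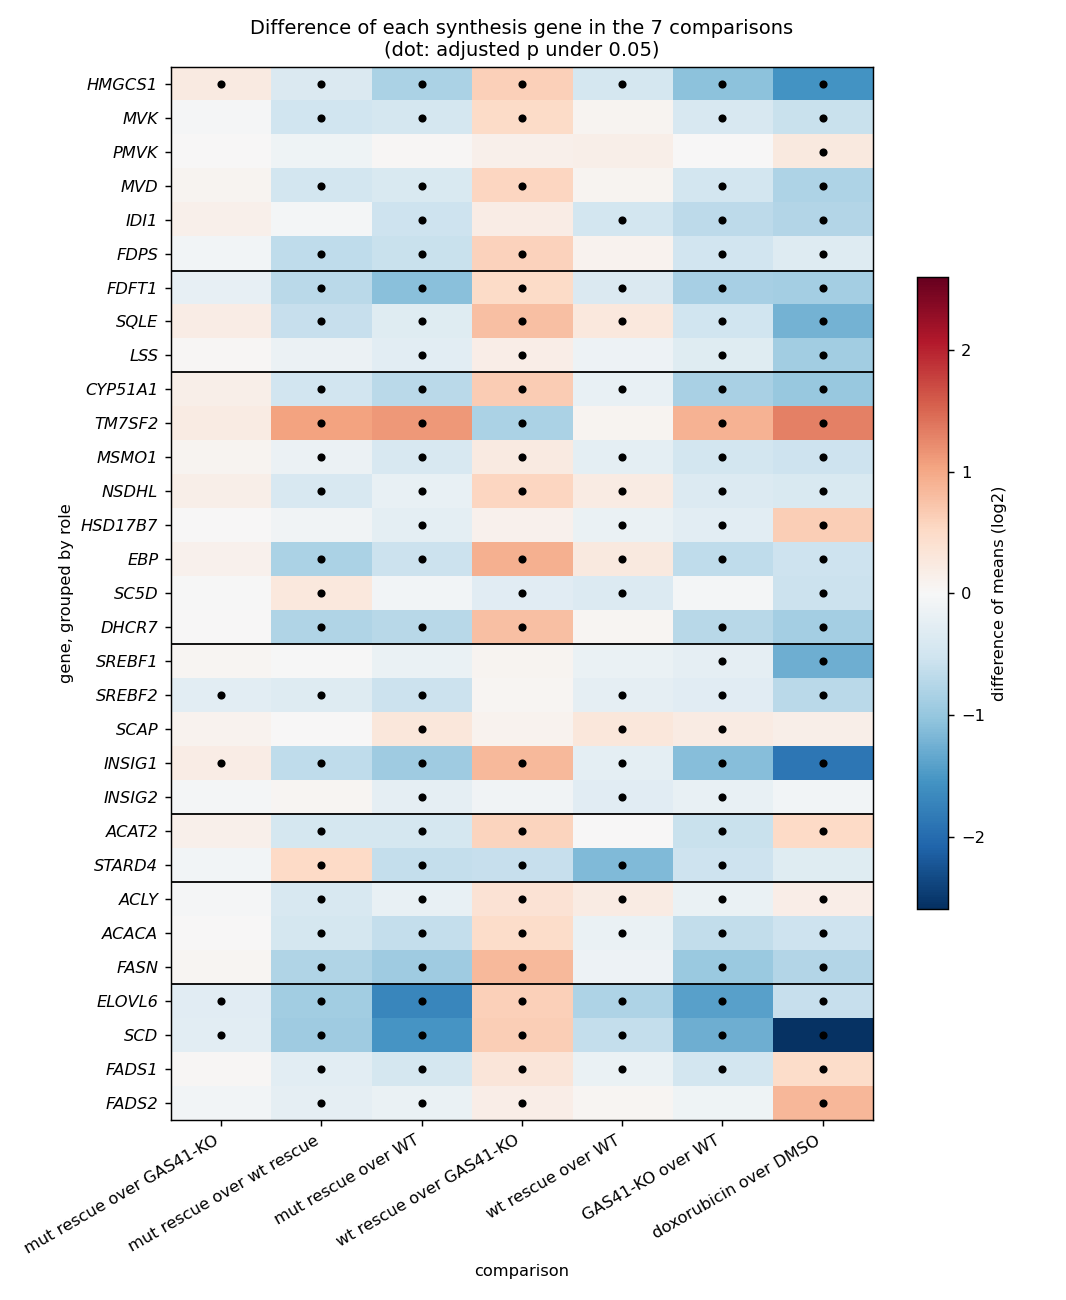
Log2 difference of means (colour; red higher, blue lower in the group named before "over") of the 31 synthesis genes (rows, grouped by role as in the text) in the 7 comparisons (columns). Dots mark an adjusted p under 0.05 (limma); the columns of the GAS41 experiment share libraries. TM7SF2 is red in GAS41-KO over WT (0.91) and doxorubicin over DMSO (1.31), where most rows are blue, and mut rescue over GAS41-KO holds 5 dots.

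Doxorubicin lowered most of the genes and raised others. In doxorubicin over DMSO, 21 of the 31 genes were lower, 7 higher and 3 not called. Of all tested genes 65.7% were called, 33.4% lower and 32.3% higher. Groups did not overlap for 28 of the 31 genes, beside 69.1% of all tested genes. The median log2 difference was -0.55 over the 31 genes and -0.01 over all tested genes. Of the mevalonate enzymes 5 of 6 fell, of those of squalene and lanosterol 3 of 3, of those after lanosterol 6 of 8, and of the sensing genes 3 of 5. Palmitate enzymes had 2 falls and 1 rise, and the enzymes of elongation and desaturation had 2 of each.

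SCD had the largest fall of the set. It had 7061, 6601 and 7241 normalized reads with doxorubicin, against 42016, 41051 and 43579.8 with DMSO, a log2 difference of -2.56 ± 0.07 (SE, adjusted p = 1.51e-11), which leaves 16.5% of the DMSO mean. INSIG1 had 409, 399 and 405 with doxorubicin, against 2047, 1962 and 1973 with DMSO, a log2 difference of -1.88 ± 0.06 (SE, adjusted p = 4.23e-11). HMGCS1 had 572, 631 and 609 with doxorubicin, against 2081, 2036 and 2289.6 with DMSO, a log2 difference of -1.55 ± 0.07 (SE, adjusted p = 7.13e-10). The treated libraries of these genes lay close together and far below every DMSO library. SREBF1 had 2061, 2000.0 and 2121 with doxorubicin, against 6019, 5385 and 4471 with DMSO, a log2 difference of -1.27 ± 0.09 (SE, adjusted p = 8.81e-08). SREBF2 averaged 2902 ± 185 with doxorubicin and 4836 ± 375 with DMSO, a log2 difference of -0.70 (adjusted p = 4.39e-06). So both factor genes fell under the drug, while SCAP and INSIG2 were not called.

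SQLE had 770.4, 698 and 765 normalized reads with doxorubicin, against 2000.0, 1989 and 2069 with DMSO, a log2 difference of -1.24 ± 0.06 (SE, adjusted p = 3.4e-09). CYP51A1 had a log2 difference of -0.99 (adjusted p = 3.97e-08), LSS one of -0.90 (adjusted p = 1.61e-07), FDFT1 one of -0.89 (adjusted p = 3.57e-07) and DHCR7 one of -0.89 (adjusted p = 4.06e-07). Log2 differences were -0.80 (adjusted p = 1.74e-06) for MVD, -0.76 (adjusted p = 4.69e-07) for IDI1, -0.58 (adjusted p = 6.31e-05) for MVK and, for FDPS, -0.34 (adjusted p = 0.000932). SC5D, EBP, MSMO1 and NSDHL fell less, with log2 differences of -0.55 (adjusted p = 2.39e-05), -0.54 (adjusted p = 2.34e-05), -0.53 (adjusted p = 2.4e-05) and -0.39 (adjusted p = 0.000115). Of the fatty acid genes, FASN had a log2 difference of -0.76 (adjusted p = 4.15e-05), ELOVL6 one of -0.59 (adjusted p = 1.5e-05) and ACACA one of -0.54 (adjusted p = 7.95e-05). Falls were called from HMGCS1 at the entry of the mevalonate route to DHCR7 at its end, but not at every step. Between them PMVK, TM7SF2 and HSD17B7 rose, as did ACAT2, which starts the sterol route.

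TM7SF2 rose most. It had 1524, 1730.3 and 1464 normalized reads with doxorubicin, against 549, 534 and 480.2 with DMSO, a log2 difference of 1.31 ± 0.07 (SE, adjusted p = 7.21e-09). FADS2 had 883, 897 and 895 with doxorubicin, against 466, 397 and 371 with DMSO, a log2 difference of 0.86 ± 0.07 (SE, adjusted p = 2.48e-07). FADS1 had 3085, 2831 and 2965 with doxorubicin, against 1968, 2073 and 2192 with DMSO, a log2 difference of 0.47 ± 0.07 (SE, adjusted p = 5.21e-05). The polyunsaturated desaturases FADS1 and FADS2 therefore went up while SCD, a desaturase of saturated fatty acids, went down. SCD5, another stearoyl desaturase and a companion gene outside the set, did not share the fall of SCD. It had 1088, 1058 and 1061 normalized reads with doxorubicin, against 626, 579 and 566 with DMSO, given without a test. HSD17B7 had 403, 405 and 367 with doxorubicin, against 195, 177 and 202 with DMSO, a log2 difference of 0.65 ± 0.06 (SE, adjusted p = 1.07e-06). Its copy HSD17B7P2, with fewer reads, rose too, to 80.5 ± 16 with doxorubicin, against 24.5 ± 3.62 with DMSO at a log2 difference of 0.53, so the split of reads between the copies is uncertain. ACAT2 had 1212, 1333 and 1264 with doxorubicin, against 901, 815 and 765 with DMSO, a log2 difference of 0.52 ± 0.07 (SE, adjusted p = 2.57e-05), whereas its overlapping neighbour TCP1 had a log2 difference of -0.84 (adjusted p = 9.39e-07). PMVK rose by 0.24 (adjusted p = 0.00494), and ACLY by 0.17 (adjusted p = 0.0496), a call that 7 alternative settings lost. STARD4 was not called at 589, 535 and 562 with doxorubicin and 519.6, 801 and 959 with DMSO, where replicate 1 lay apart, and without that DMSO library its log2 difference of -0.51 was called (limma, adjusted p = 7.25e-06).

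**Figure D4:**
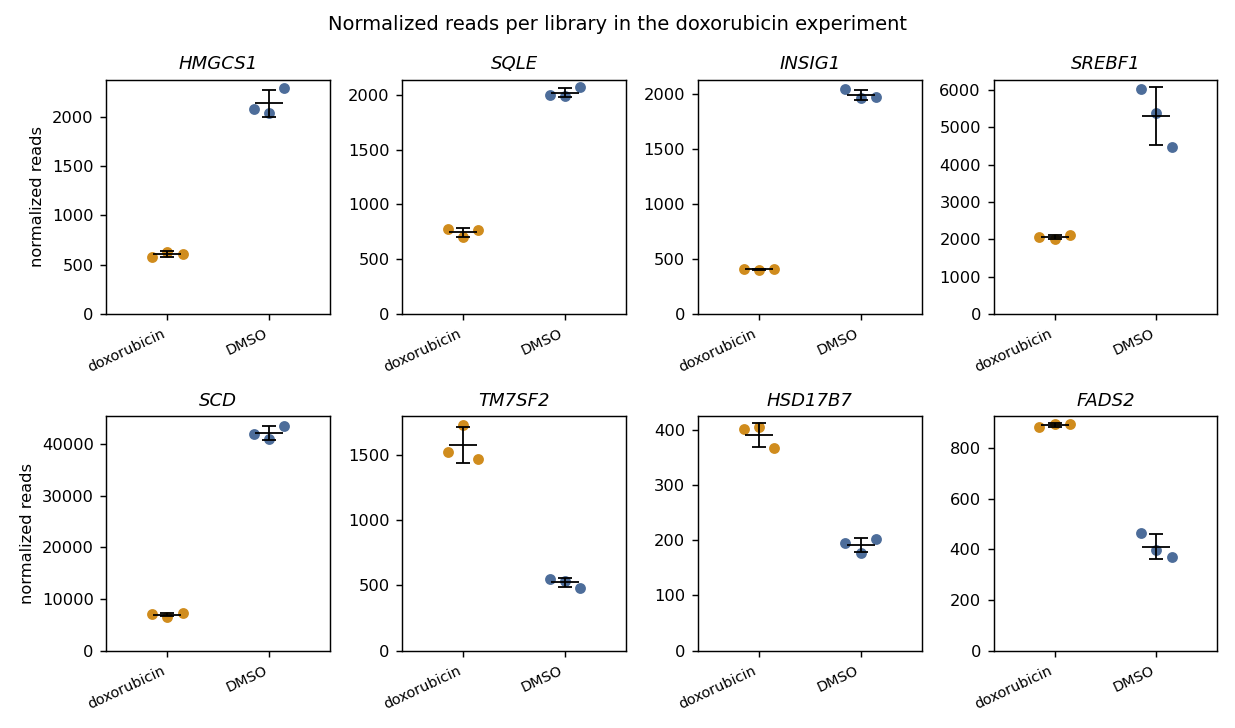
Normalized reads (y axis, linear, from 0) of 8 synthesis genes in 3 doxorubicin and 3 DMSO libraries, by group along the x axis. Points are libraries and bars the mean ± SD (n = 3). HMGCS1, SQLE, INSIG1, SREBF1 and SCD lie lower with doxorubicin, TM7SF2, HSD17B7 and FADS2 higher, and no group overlaps its partner.

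The knockout and the drug were studied in separate tables with no library in common, so their values can be set side by side. Of the 31 genes, 20 were lower in both comparisons, TM7SF2 was higher in both, and 4 were lower in the knockout and higher under the drug: HSD17B7, ACAT2, ACLY and FADS1. Of the 13803 genes tested in both tables, 14.3% were lower in both, 12.7% higher in both, and 5.58% lower in the knockout and higher under the drug. Across the 31 genes the log2 differences had Pearson's r of 0.71 and Spearman's rho of 0.63, against 0.24 and 0.31 over the 13803 genes, a description over genes that are not independent. SCD and INSIG1 were low in both, at -1.26 and -1.11 in the knockout and -2.56 and -1.88 under doxorubicin. ELOVL6 had -1.42 in the knockout and -0.59 under doxorubicin, and SREBF1 had -0.24 in the knockout and -1.27 under doxorubicin. The scales of the tables were set separately and no test of a difference between them was made. YEATS4 was lower in both comparisons, and its part in these values was not tested.

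**Figure D5:**
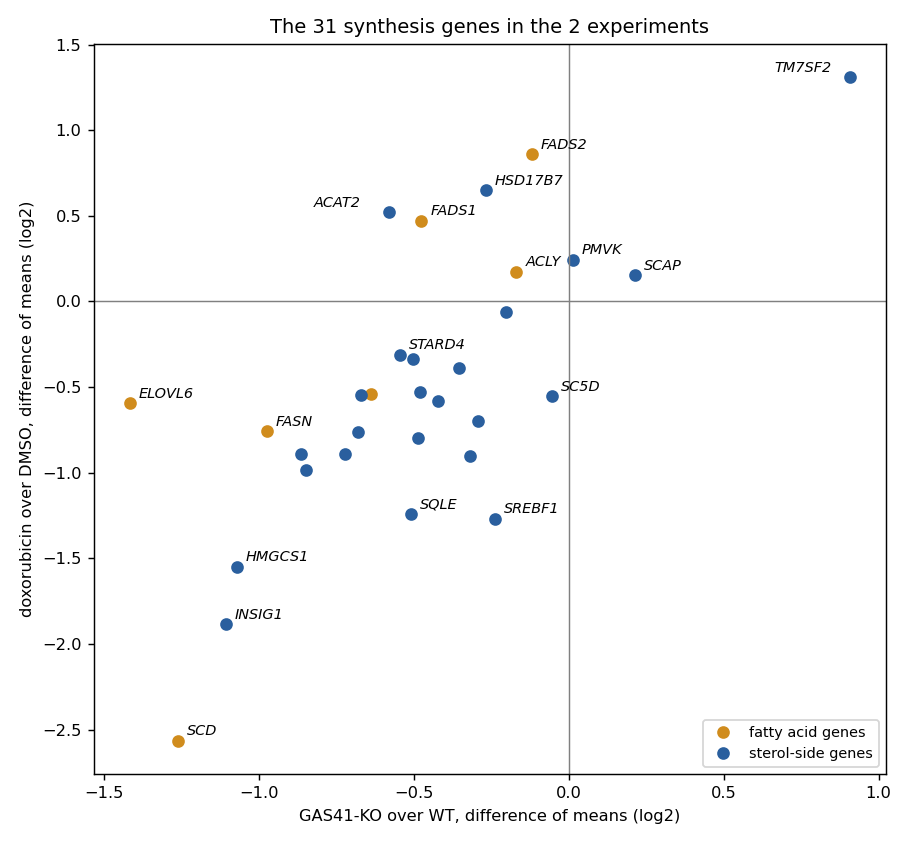
Log2 difference of means in GAS41-KO over WT (x axis) against doxorubicin over DMSO (y axis), 1 point for each of the 31 synthesis genes, coloured by side of the pathway. SCD, INSIG1 and HMGCS1 sit at the lower left, TM7SF2 at the upper right, and HSD17B7, ACAT2, ACLY and FADS1 at the upper left.

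Some of the genes share sequence or position with others. MVK overlaps MMAB, which fell in the knockout with a log2 difference of -0.33 (adjusted p = 0.00054), and IDI1 overlaps WDR37, which rose by 0.21 (adjusted p = 0.0147). SREBF1 overlaps RAI1, FADS1 overlaps FADS2, STARD4 overlaps STARD4-AS1, and FDPS has the copy FDPSP2, each named from RefSeq. Whether reads were counted by strand is not given in the sources used here, so values of these genes are less certain than the rest.

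Companion genes of the same biology were counted by list. Among 11 tested genes of sterol uptake and other sterol-responsive genes, 1 was higher and 6 lower in GAS41-KO over WT, 6 higher and 3 lower in wt rescue over GAS41-KO, and 1 higher and 6 lower in mut rescue over wt rescue. Of all tested genes 26% were higher and 26.6% lower in the first of these comparisons, 33% and 33% in the next, and 29.8% and 31.3% in the last. No list was tested against the other genes. TMEM97, a sterol-responsive membrane protein, averaged 1934 ± 189 normalized reads in wt rescue and 959 ± 53.8 in GAS41-KO, a log2 difference of 0.91 (adjusted p = 2.53e-08). LPIN1, a phosphatidate phosphatase, averaged 344 ± 9.45 in GAS41-KO and 563 ± 63.9 in WT, a log2 difference of -0.54 (adjusted p = 9.63e-06). In the other isoprenoid branches 6 of 10 genes were lower and 1 higher in the knockout. NUS1, of dolichol synthesis, averaged 2104 ± 148 in GAS41-KO and 2939.9 ± 126 in WT (-0.46, adjusted p = 6.33e-05). PDSS1, of coenzyme Q synthesis, had a log2 difference of -0.47 (adjusted p = 7.53e-05). Of 8 genes of SREBP processing and turnover, 3 were higher and 2 lower, and MBTPS2, a protease that frees the factors, had a log2 difference of -0.43 (adjusted p = 3e-05).

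Genes of fatty acid breakdown were higher in the knockout where they passed the test. Of 11 tested genes of fatty acid oxidation, 7 were higher and 0 lower in GAS41-KO over WT, beside 26% higher and 26.6% lower over all tested genes; at an unadjusted p under 0.05 the count of lower genes was also 0 (limma). In wt rescue over GAS41-KO 7 were lower, beside 33% of all tested genes. ACADVL, which opens the oxidation of long chains in mitochondria, had 6422, 6312 and 6029 normalized reads in GAS41-KO, against 2773, 2724 and 2741 in WT, a log2 difference of 1.14 ± 0.06 (SE, adjusted p = 8.57e-11). It averaged 3215 ± 40.9 in wt rescue, a log2 difference from GAS41-KO of -0.93 (adjusted p = 1.15e-09), and 5799 ± 299 in mut rescue, a log2 difference from WT of 1.04 (adjusted p = 4.19e-10). CPT1A, which admits fatty acids into mitochondria, averaged 4302 ± 185 in GAS41-KO and 2521 ± 73.9 in WT, a log2 difference of 0.74 (adjusted p = 9.44e-07). Under doxorubicin 4 genes of this list were higher and 4 lower, close to the 32.3% and 33.4% of all tested genes, with ACADVL at 0.99 (adjusted p = 5.83e-08) and CPT1A at 0.69 (adjusted p = 1.36e-06).

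Sterol efflux and storage genes were counted in the same way, beside 26% higher and 26.6% lower over all tested genes in the knockout and 32.3% higher and 33.4% lower under doxorubicin. Of 7 LXR factors and targets, genes that export and handle surplus cholesterol, 3 were higher and 0 lower in GAS41-KO over WT, with 0 lower at an unadjusted p under 0.05 as well (limma). ABCA1, a cholesterol exporter, had 129.7, 139 and 144 normalized reads in GAS41-KO, against 41.1, 48.2 and 38.9 in WT, a log2 difference of 0.75 ± 0.09 (SE, adjusted p = 5.3e-06). It had 481, 313 and 493 with doxorubicin, against 21.4, 35.7 and 20.4 with DMSO, a log2 difference of 1.85 ± 0.11 (SE, adjusted p = 7.59e-09). Of 8 tested genes of sterol esterification and lipid storage, 6 were higher and 0 lower in the knockout, and 6 higher and 1 lower under doxorubicin. NCEH1, a cholesteryl ester hydrolase, averaged 887 ± 39.9 in GAS41-KO and 546 ± 38 in WT (0.58, adjusted p = 2e-06). DGAT1, an enzyme of triglyceride synthesis, averaged 2698 ± 125 with doxorubicin and 945 ± 73.3 with DMSO, a log2 difference of 1.34 (adjusted p = 4.04e-09). Of 17 genes of other fatty acid supply and activation, 4 were higher and 4 lower in the knockout, near the shares of all genes, and 6 higher and 9 lower under doxorubicin. ME1, the malic enzyme that supplies NADPH for fatty acid synthesis, averaged 1167 ± 53.1 in GAS41-KO and 2111 ± 69 in WT, a log2 difference of -0.78 (adjusted p = 7.07e-07). ACSL5, which activates fatty acids, averaged 1123 ± 37.2 with doxorubicin and 2717 ± 121 with DMSO, a log2 difference of -1.14 (adjusted p = 8.85e-09). SCD5, a second stearoyl desaturase, rose in the knockout while SCD fell: it averaged 876 ± 7.52 in GAS41-KO and 578 ± 13.8 in WT, a log2 difference of 0.50 (adjusted p = 2.79e-06).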

How the data were processed

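RNA of 18 libraries was analysed, and 26 ChIP and input samples were not analysed here. Per the submitters' processing notes the tools were TopHat2 2.1.0, Bowtie 1.0.1, HTSeq, DESeq2, Trimmomatic 0.36 and CASAVA 1.4, and the builds hg19 and mm9; which step each served is not given there. Both tables are named as counts, but the authors deposited log2 values on a variance-stabilized scale: inverting that scale gave whole reads, within 0.01, for all values, and these are the reads quoted here. Such log2 differences understate the change of genes with few reads. The 31 genes and all companion lists were chosen with earlier results of these data known. Tests used limma 3.58.1 in R 4.3.3 on those log2 values, its prior variance following the mean, with 1 fit per experiment, on genes with at least 10 reads in at least 3 libraries, and p-values were adjusted over all tested genes (Benjamini-Hochberg, called under 0.05). All 31 genes could be named, and from each companion list the 2 tested genes with the smallest p in a comparison, plus YEATS4; genes beyond that are given because a result turned on them. Alternatives were other filters, voom with the deposited or TMM factors, quantile normalization, a replicate block, no mean-dependent prior, only the libraries compared, and leaving out each library. The fit was tested on simulated data. The depth of the libraries limits precision for genes with few reads; intervals cover the spread between libraries.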

Additional observations from a re-analysis of the deposited data

How the results depend on the processing

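Over 3100 alternative values of single genes, 2945 stayed on their side of the threshold, 129 lost their call and 26 gained one. Direction was compared only for genes called in the main fit, and 0 of those values reversed. Leaving out 1 library gave 24 to 25 called genes of 31 in GAS41-KO over WT, 22 to 26 in wt rescue over GAS41-KO, 1 to 6 in mut rescue over GAS41-KO, 22 to 25 in mut rescue over wt rescue, 15 to 19 in wt rescue over WT, 24 to 28 in mut rescue over WT and 27 to 30 in doxorubicin over DMSO. The shares of all tested genes called were, in the same order, 45.9% to 47.4%, 59.5% to 70% and 8.8% to 16.4%. For the later comparisons they were 53.2% to 65.7%, 38.5% to 58.2%, 39.2% to 45.6% and 58.5% to 67.3%. With wt rescue replicate 1 as its sole library, wt rescue over WT had a median log2 difference of -0.19 over the 31 genes. That alternative has fewer samples. Same replicate numbers did not meet the bar for pairing, a correlation over 0.1 in every pair: deviations of same-numbered libraries correlated between -0.39 and 0.48 over 18 pairs of the GAS41 experiment, 11 of them over 0.1 (6 of 6 for replicate 1, 5 of 6 for replicate 2 and 0 of 6 for replicate 3), and between -0.39 and 0.15 over 3 pairs of the doxorubicin experiment, 1 over 0.1. By mean correlation 8 of 12 and 2 of 6 libraries were closest to their own number, a hint from the data and not the design. With a replicate block the counts of called genes were 28 in GAS41-KO over WT, 25 in wt rescue over GAS41-KO, 5 in mut rescue over GAS41-KO, 24 in mut rescue over wt rescue, 20 in wt rescue over WT, 28 in mut rescue over WT and 28 in doxorubicin over DMSO. The shares of all tested genes called with the block were, in that order, 54.4%, 67.4%, 16.6%, 62.6%, 52.3%, 48.4% and 65.1%. In GAS41-KO over WT the calls of ACLY, INSIG2, SCAP and SREBF1 were lost under some settings, with adjusted p (limma) up to 0.132. Under doxorubicin the call of ACLY was lost under some settings, with adjusted p (limma) up to 0.192. Of the genes called in the main fit, some lost their call under at least 1 setting. They numbered 4 of 28 in GAS41-KO over WT, 5 of 24 in wt rescue over GAS41-KO and 4 of 5 in mut rescue over GAS41-KO. In mut rescue over wt rescue they numbered 5 of 24, and in wt rescue over WT 12 of 20. In mut rescue over WT they numbered 4 of 28, and in doxorubicin over DMSO 1 of 28. The share of lost calls over all tested genes was not counted. The cause of the lost calls was not tested.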
